A study of Mus musculus with 4 samples.

Results

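Conventional type 2 dendritic cells (cDC2) were taken from the CD45-positive cells of mouse tumours and were chosen by raw counts of unique molecular identifiers (UMIs, each standing for 1 captured mRNA molecule). A cell was counted as cDC2 when it held at least 2 UMIs of Cd209a and at least 10 of H2-Ab1, at most 1 each of Xcr1 with Clec9a, of Siglech, of Fscn1 and of the Cd3 genes, and fewer than 10 C1q UMIs per 10000. The rule found 616 cDC2 among 39906 filtered cells. The mice were 8 weeks old and carried subcutaneous tumours of MC38, a mouse colorectal tumour line. Of the 4 libraries, WT-1 and WT-2 were wild type, and cKO-1 and cKO-2 carried a conditional Trim25 knockout. Cells of all 4 libraries were sorted for CD45 before droplet capture. The series title places the ablation of Trim25, a ubiquitin ligase, in T cells; neither the Cre driver nor the number of animals behind a library is stated in the labels. The comparison asks whether the cDC2 of these tumours differ between the genotypes.

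Conventional dendritic cells take up antigen in tissue and present it to T cells. The type 2 branch presents mainly on MHC class II to CD4 T cells, depends in part on the transcription factor Irf4, and carries C-type lectins such as Cd209a and Clec10a, whereas the type 1 branch (cDC1) is known for cross-presentation to CD8 T cells. In inflamed tissue, cells derived from monocytes can carry Cd209a and MHC class II too, so the growth factor receptor Flt3 and the transcription factor Zbtb46, which mark the dendritic lineage, are usually read beside monocyte genes.

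The cDC2 sets were small and deep. They held 149 cells in WT-1, 231 in WT-2, 84 in cKO-1 and 152 in cKO-2, with medians of 12661, 12063, 15258 and 12622 UMIs per cell. Summed over the set, the libraries held 2039011, 3090919, 1329500 and 2099749 UMIs, and levels below are CPM, the UMIs of a gene per 1000000 UMIs of that sum. Scrublet doublet scores above 0.2 occurred in 1, 5, 0 and 3 cDC2. The 4 libraries shared 289 barcodes among filtered cells, none of them between the cDC2 of different libraries, and 10 cDC2 carried a barcode also seen in another library.

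The gated cells carried the marker genes of the type with which they were labelled, beside a marked monocyte component. Of the markers outside the rule, Ctnnd2, a delta-catenin, stood at 359 ± 83.3 CPM (mean ± SD over 4 libraries of both genotypes), against 169 ± 21.2 in cDC1 and 22.4 ± 5.20 in monocytes. Ifitm1, an interferon-induced membrane protein, stood at 1644 ± 279 CPM in cDC2, 814 ± 340 in cDC1 and 168 ± 11.5 in monocytes. Each of these 2 genes was higher in cDC2 than in cDC1, migratory dendritic cells, plasmacytoid dendritic cells, monocytes and C1q macrophages in every library. Kmo, the kynurenine monooxygenase of tryptophan breakdown, was at 225 ± 17.3 CPM in cDC2 and 152 ± 13.6 in cDC1, but it was higher still in plasmacytoid dendritic cells, at 357 ± 51.9. Ciita, the master activator of MHC class II genes, did not separate cDC2 (238 ± 24.4 CPM) from cDC1 (236 ± 38.8) and was low in monocytes (34.2 ± 6.62). These gates were cut from the same counts, so the levels are a description with no test.

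**Figure D1:**
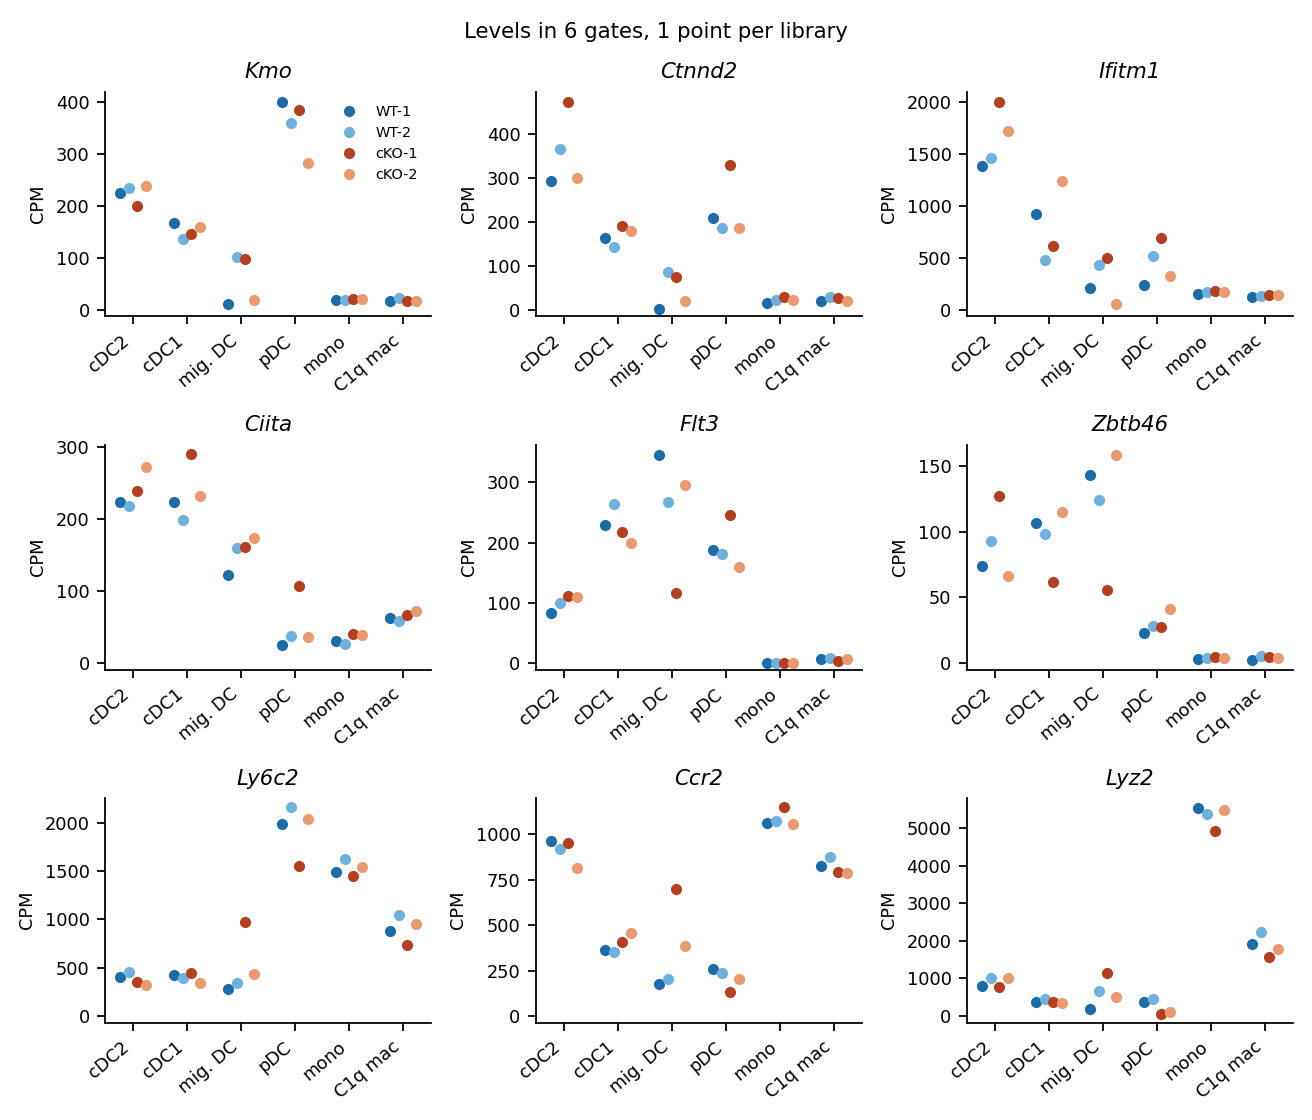
Levels of 9 genes in 6 gated cell types, in CPM on linear axes, with 1 point for each library. Ctnnd2 and Ifitm1 sit above the other gates in cDC2; Flt3 and Zbtb46 are shared with the other dendritic gates, and Ccr2 with monocytes.

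Dendritic lineage genes were present, with Flt3 below its level in the other dendritic gates. Flt3 was at 101 ± 13 CPM in cDC2 and 228 ± 27.7 in cDC1, and Zbtb46 was at 90.1 ± 27.1 in cDC2, 95.5 ± 23.5 in cDC1 and 3.94 ± 0.626 in monocytes. After thinning each cell to 5000 UMIs, which left out 38 cDC2, 32.7% of cDC2 had a Flt3 UMI and 28.9% a Zbtb46 UMI, against 1.7% and 2.7% of T cells. Clec10a, a galactose-binding lectin, was at 69.1 ± 12.4 CPM in cDC2 and 4.59 ± 1.75 in cDC1. Mgl2, also read as a cDC2 marker, had a UMI in 4.67% of thinned cDC2 and 0.322% of thinned cDC1. In thinned C1q macrophages its share was 3.98%, so Mgl2 hardly set cDC2 apart from them. Irf4 was at 43.0 ± 10.5 CPM in cDC2 and 9.64 ± 3.34 in cDC1.

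Monocyte genes were also well above 0. Ccr2, the chemokine receptor by which monocytes and their progeny enter tissue, was at 913 ± 68.9 CPM in cDC2, against 394 ± 47.6 in cDC1 and 1086 ± 43.5 in monocytes. Ly6c2, a surface protein of classical monocytes, was at 384 ± 60.8 CPM in cDC2 and 1527 ± 76.3 in monocytes. Lysozyme (Lyz2) was at 897 ± 124 CPM in cDC2 and 5331 ± 277 in monocytes. Ccr7, the receptor that guides dendritic cells to lymph nodes, reached 1.0% of thinned cDC2, a share that the limit on Fscn1 in the rule can lower. Genes of other cell types were lower but not absent. The 8 T cell genes, whose level the limit on Cd3 genes in the rule can lower, summed to between 14.3 and 38.8 CPM, and the 8 tumour or fibroblast genes to between 5.27 and 14.9. The 7 B cell genes summed to 100.1, 94.1, 51.9 and 76.2 CPM, of which Ighm made up 93.7, 73.8, 47.4 and 73.3. The 7 NK genes summed to 49.0, 272, 28.6 and 148 CPM and the 6 neutrophil genes to 46.6, 129, 9.78 and 13.3, both highest in WT-2. Igkc, Krt8 and Col1a2 were at 0 in all libraries.

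The genes that set cDC2 furthest apart from the other gates were largely outside the usual marker lists. Among genes of at least 50 CPM in every cDC2 library, the ratio of the cDC2 mean to the next highest gate was greatest for Ank, a pyrophosphate transporter, at 168 ± 42.8 CPM against 44.7 in monocytes. Hivep2 was at 767 ± 152 CPM against 298 in cDC1, and St3gal4, a sialyltransferase, at 900 ± 217 against 351 in cDC1. Cd300a, an inhibitory receptor, was at 326 ± 24.5 CPM against 139 in plasmacytoid dendritic cells. Bex6, Rin3, Eps8, Ifitm1, Ifitm2, Afdn, Ccnd3, Med13l, Kcnn4 and Olfm1 followed, with ratios from 1.81 to 2.20. Each gene named here was higher in cDC2 than in all 5 other gates in 4 of 4 libraries. The genes were ranked on these same libraries, so that agreement follows in part from the ranking and is no test.

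The gate was not uniform. Cd209a itself, by which the cells were chosen, had a median of 9 UMIs and reached 113, and 75 cells sat at exactly 2. Those 75 cells and the 148 cells just outside, which met every other condition but held 1 Cd209a UMI, were at 399 and 433 CPM for Ctnnd2, 197 and 201 for Kmo, and 105 ± 43.4 and 64.9 ± 18.3 for Flt3. For Lyz2 they were at 767 ± 547 and 1113 ± 341 CPM, and for Chil3 at 59.4 ± 61.0 and 209 ± 120. The cells just outside thus read close to those just inside for Kmo and Ctnnd2, and the spread between libraries was wide for the monocyte genes.

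Ly6c2 divided the gate more broadly. There were 194 cDC2 (31.5%) with no Ly6c2 UMI and 243 (39.4%) with 3 or more. The share with 3 or more was 37.6% in WT-1, 39.4% in WT-2, 42.9% in cKO-1 and 39.5% in cKO-2. It was 40.8% among the 272 cells without a Flt3 UMI and 38.4% among the 344 with one. The cells with a Flt3 UMI were deeper, with a median of 13066 UMIs against 11829. Deeper cells more often show a UMI of either gene, so these shares cannot show how Flt3 and Ly6c2 go together. In CPM, Flt3 was lower where Ly6c2 had 3 or more UMIs, as given below. In thinned cells 49.0% of cDC2 had a Ly6c2 UMI, against 63.6% of T cells and 45.7% of cDC1; activated T cells are known to carry Ly6C, so no gate here shows how much of it is free RNA.

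Levels of other genes nevertheless differed between the Ly6c2 ranges in the same direction in every library. In the order WT-1, WT-2, cKO-1, cKO-2, Lyz2 was at 420, 400, 348 and 487 CPM in the cells without Ly6c2, and at 1156, 1449, 1061 and 1282 in those with 3 or more UMIs. F13a1, a coagulation factor subunit made by monocytes, was at 29.5 ± 10.0 CPM without Ly6c2 and 142 ± 31.4 with it. Ccr2 was at 617 ± 78.6 and 1119 ± 141 CPM. MHC class II ran the other way: H2-Aa was at 6972, 7169, 7019 and 7210 CPM without Ly6c2 and at 3692, 3589, 3579 and 4643 with it. H2-Oa and H2-Ob, which temper peptide loading onto class II, were at 95.8 ± 20.1 and 91.2 ± 13.3 CPM without Ly6c2, against 33.6 ± 10.1 and 27.0 ± 4.7 with it. Tnfsf9, the ligand of 4-1BB, was at 111 ± 73.6 and 42.6 ± 11.4 CPM. Zbtb46 overlapped between the ranges, at 93.9 ± 22.9 and 76.8 ± 30.02 CPM. Flt3 did not overlap and was lower with Ly6c2 in every library. It was at 131, 103, 113 and 140 CPM without Ly6c2 and at 49.6, 78.0, 91.1 and 93.9 with 3 or more UMIs. The cells with 3 or more Ly6c2 UMIs were also deeper, with a median of 14675 UMIs against 10835, and the part of depth or mixed droplets in these differences was not tested.

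**Figure D2:**
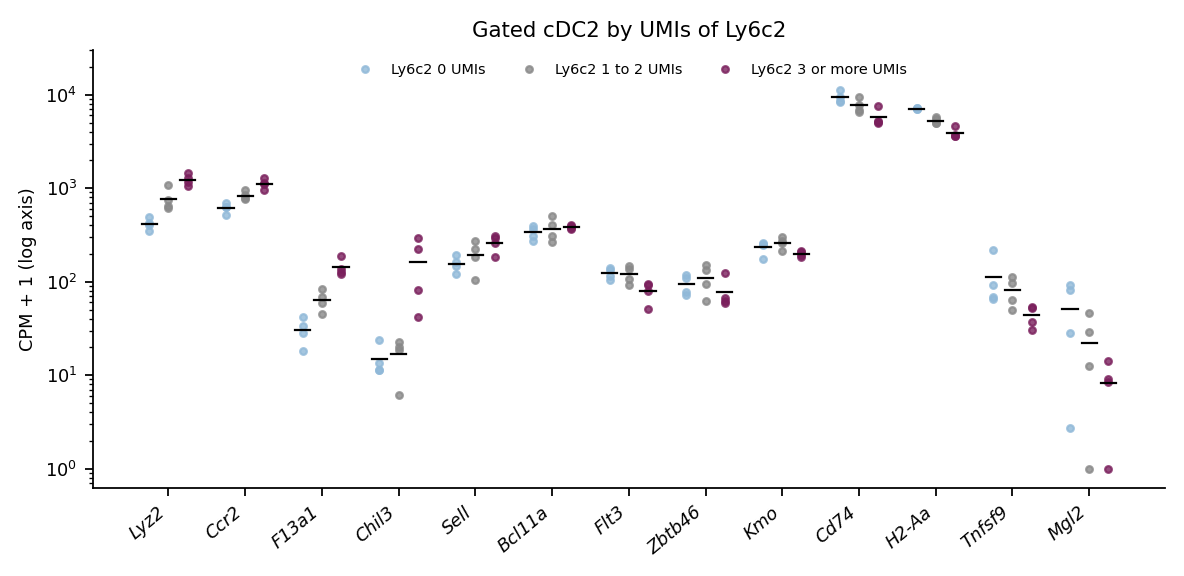
CPM + 1 on a log axis for 13 genes in gated cDC2 with 0, 1 to 2, or 3 or more UMIs of Ly6c2; points are the 4 libraries and bars their means. Lyz2, Ccr2 and F13a1 are higher, and Cd74 and H2-Aa lower, where Ly6c2 is higher, while Zbtb46 overlaps. Flt3 is lower at 3 or more UMIs than at 0.

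A smaller group of cDC2 carried Hpgd, which encodes the 15-hydroxyprostaglandin dehydrogenase that inactivates prostaglandins. There were 90 such cells and 526 without a UMI of it, at similar depth (medians of 12282 and 12760 UMIs). Ifitm1 was at 681, 732, 648 and 507 CPM in the Hpgd-positive cells, library by library in the same order, and at 1584, 1626, 2100 and 1877 in the others. Il1r2, the decoy receptor for interleukin 1, was at 94.2 ± 51.8 against 432 ± 140 CPM. Ly6a (Sca-1) was at 376 ± 196 against 1229 ± 92.7 CPM, and the cyclin Ccnd1 at 220 ± 117 against 573 ± 25.3. In all 4 libraries these genes were lower where Hpgd was present. So were the markers Ctnnd2, at 194 ± 61.8 against 380 ± 85.4 CPM, Kmo, at 153 ± 28.8 against 236 ± 21.1, and Ciita, at 121 ± 63.4 against 254 ± 27.8. The lineage genes were mixed. In the Hpgd-positive cells Flt3 was at 87.1, 156, 44.7 and 182 CPM, below its level over all cDC2 only in cKO-1. Zbtb46 was at 60.3, 110, 89.4 and 63.4 CPM in them, above its level over all cDC2 only in WT-2.

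The monocyte genes Lyz2 and F13a1 were higher in the Hpgd-positive cells of every library. Lyz2 was at 1717, 1336, 3075 and 1170 CPM in them and at 553, 928, 606 and 987 in the others, and F13a1 at 169 ± 54.5 against 80.1 ± 18.5. Also higher in every library were Stxbp6, a syntaxin-binding protein, at 234 ± 97.3 against 56.9 ± 12.1 CPM, and the lectin Clec4a1, at 153 ± 49.8 against 54.5 ± 15.3. Apolipoprotein E (Apoe) was at 359 ± 187 against 86.0 ± 34.4 CPM, and granzyme B (Gzmb) at 820 ± 952 against 48.8 ± 37.8, the latter with a spread larger than its mean. In all, 55 genes (Hpgd included) were at least 2-fold higher on average and higher in 4 of 4 libraries, and 48 were lower by the same measure. Only genes of at least 50 CPM on the higher side were counted, and cKO-1 contributed only 6 Hpgd-positive cells. Neither the number of genes reaching 50 CPM nor counts from random splits of these sizes were taken, so no background rate is known. These ranges were chosen after their values were seen, the differences have no test, and the part of other cell types or mixed droplets in them was not tested.

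Cells in cycle were few. At least 2 UMIs of Mki67 and Top2a together, which mark dividing cells, were found in 12 of 149, 13 of 231, 7 of 84 and 13 of 152 cDC2, or 7.31% in all.

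The share of cDC2 among all filtered cells did not separate the genotypes. It was 1.46% in WT-1, 1.91% in WT-2, 1.02% in cKO-1 and 1.62% in cKO-2. The 2 cKO values enclosed that of WT-1, so the groups overlapped. The means were 1.68% ± 0.320 in WT and 1.32% ± 0.421 in cKO (SD, n = 2 each), a difference of -0.363 percentage points (exact permutation test over libraries, two-sided, p = 0.667, where the smallest p that 2 against 2 allows is 0.3333). As a share of all gated dendritic cells, cDC2 made up 44.3%, 39.4%, 40% and 39.3%.

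**Figure D3:**
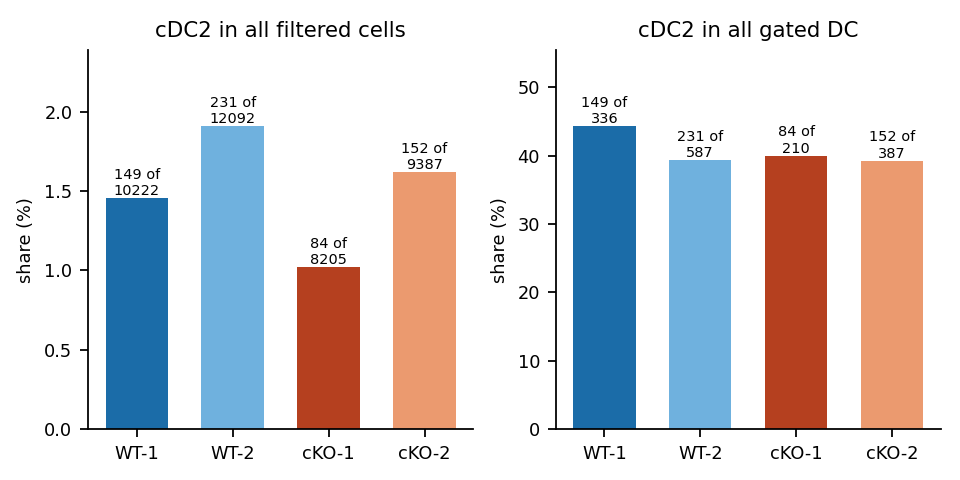
Bars from 0 give the share of cDC2, in percent, among all filtered cells (left) and among all gated dendritic cells (right) in each library, with the cell counts above. In the left panel cKO-1 is lowest and WT-2 highest, with WT-1 and cKO-2 between them.

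Trim25 itself was present in cDC2 of every library. It was at 243 CPM in WT-1, 240 in WT-2, 189 in cKO-1 and 226 in cKO-2, with a log2 fold change of cKO over WT of -0.22 ± 0.16 (SE; edgeR's quasi-likelihood test with Benjamini-Hochberg adjustment, adjusted p = 0.983). Both cKO libraries lay below both WT libraries, by less than the test could separate. In T cells, where the title places the ablation, 29.0%, 32.8%, 28.2% and 28.0% of thinned cells had a Trim25 UMI (43.1%, 46.8%, 45.6% and 46.6% unthinned, at greater depth in cKO); which exons are removed is not given, so these 3' counts do not check the labels. Vsir, which encodes the checkpoint protein VISTA of the series title, was at 64.7, 47.8, 50.4 and 62.9 CPM in cDC2, and the groups overlapped.

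Few genes separated the genotypes within cDC2. Of 9013 genes tested, 3 fell in cKO at an adjusted p under 0.05 (0.0333%) and 0 rose (0.0%). At an unadjusted p under 0.05 there were 475 (5.27%), and DESeq2 called 5, of which 1 was higher in cKO. Nothing in the labels ties the libraries to different animals, and the p-values cover the spread among these 4 samples, part of which may be technical. The genes that fell were Hpgd, Chil3 and S100a8.

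The gene starts of Hpgd (chr8:56294585-56321043, plus strand) and Chil3 (chr3:106147554-106167564, minus strand) are shown since both genes fell; S100a8 fell too, but its window overlaps the annotated transcript and is not printed. Coordinates are GRCm38, from GENCODE vM21. The 250 bases before each RefSeq start (GRCm38.p6) follow, in the direction of the gene, with capitals marking matches to the PU.1 core GGAAGT on either strand. The Hpgd window is chr8:56294302-56294551 on the plus strand and the Chil3 window chr3:106167565-106167814 on the minus strand.
Hpgd: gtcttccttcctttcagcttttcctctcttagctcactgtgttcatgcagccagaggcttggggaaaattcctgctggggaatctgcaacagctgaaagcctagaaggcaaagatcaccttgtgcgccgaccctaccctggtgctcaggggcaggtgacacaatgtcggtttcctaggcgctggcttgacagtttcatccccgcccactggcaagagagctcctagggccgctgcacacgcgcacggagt
Chil3: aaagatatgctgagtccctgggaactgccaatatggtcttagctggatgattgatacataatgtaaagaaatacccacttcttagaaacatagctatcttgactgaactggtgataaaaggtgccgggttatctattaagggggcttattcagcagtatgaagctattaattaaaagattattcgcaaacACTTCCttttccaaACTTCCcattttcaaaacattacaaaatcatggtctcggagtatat
The Chil3 window held 2 such matches, that of S100a8 1 and that of Hpgd 0, and none of them held the C/EBP core TTGCNNAA on either strand. Of 32851 RefSeq windows of this length, 19.7% held GGAAGT and 9.56% held TTGCNNAA. A match describes letters in the window and no binding was measured.

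Of the 3, Hpgd rested least on single cells. It was at 80.4 CPM in WT-1, 54.0 in WT-2, 9.03 in cKO-1 and 18.1 in cKO-2, from 164, 167, 12 and 38 UMIs. Both WT libraries were above both cKO libraries, as were 16.5% of all genes. The log2 fold change was -2.23 ± 0.31 (SE; edgeR, adjusted p = 0.0177). The UMIs came from 28, 39, 6 and 17 cells, and the highest cell of each library held 31, 18, 3 and 6. With the highest cell of each library left out, a setting added after seeing the data, Hpgd stayed at -2.23 with an edgeR adjusted p of 0.0455. With each cell capped at 5 UMIs of the gene it was at -1.40 (edgeR adjusted p = 0.0940), and without WT-1 at -1.94 (edgeR adjusted p = 0.0690). The call was also lost, with the direction kept, with a Cd209a minimum of 1 (-2.22, edgeR adjusted p = 0.183), with no C1q limit (-2.13, 0.0579), with the gate on thinned cells (-2.02, 0.148), in cells with no Ly6c2 UMI (-2.70, 0.502), in cells with a Flt3 UMI (-2.47, 0.170) and without cells holding 3 or more NK or neutrophil UMIs (-2.26, 0.0979). It passed in 10 of 18 alternatives. In thinned cells 10.7% of cDC2 had an Hpgd UMI (exact Clopper-Pearson 95% interval 8.32 to 13.5, counting error only), against 1.26% of T cells (0.975 to 1.599) at median depths of 8026 to 10734 UMIs, so the gene stood above the background of the droplets. Hpgd was also measured lower in cKO outside cDC2, at 36.4, 55.6, 16.8 and 28.5 CPM in monocytes and 21.0, 27.5, 11.95 and 10.6 in C1q macrophages. In the other dendritic cell gates the genotypes overlapped, at 9.68, 2.24, 9.26 and 6.89 CPM in cDC1 and 6.11, 9.13, 3.73 and 14.998 in migratory dendritic cells. On the log2 scale, the genotype effect in cDC2 minus that in monocytes was -1.31 ± 0.35 (edgeR, adjusted p = 0.256), and minus that in cDC1 it was -2.84 ± 0.65 (edgeR, adjusted p = 0.518).

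**Figure D4:**
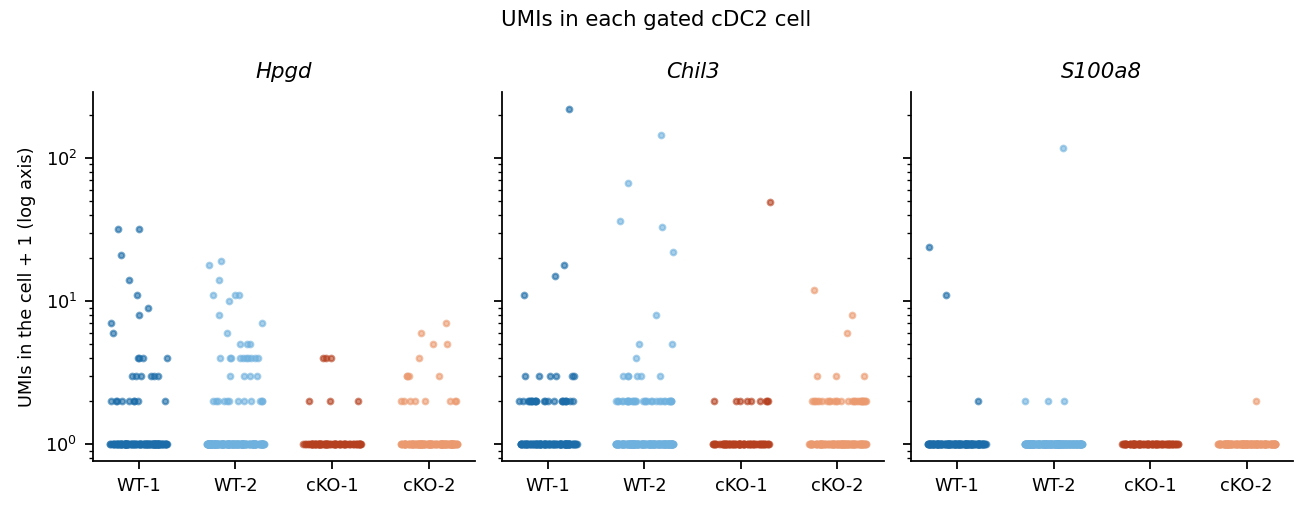
UMIs of Hpgd, Chil3 and S100a8 in each gated cDC2 cell, plus 1, on a log axis, with 1 point for each cell and libraries side by side. Hpgd is spread over many WT cells, with at most 31 UMIs in a cell, while the Chil3 and S100a8 totals rest on a few cells with up to 220 and 116 UMIs.

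Chil3, which encodes the chitinase-like protein Ym1 of monocytes, neutrophils and alternatively activated macrophages, was at 146 and 116 CPM in the WT libraries and 42.9 and 26.7 in the cKO libraries. Both WT libraries were above both cKO libraries, and the log2 fold change was -1.95 ± 0.24 (SE; edgeR, adjusted p = 0.00776). Of the 297 UMIs in WT-1, 220 came from 1 cell; the highest cell held 143 of 358 in WT-2, 48 of 57 in cKO-1 and 11 of 56 in cKO-2. Without the highest cell of each library the value was -1.81 (edgeR adjusted p = 0.269), and with cells capped at 5 UMIs it was -0.63 (edgeR adjusted p = 0.965). Lowering the Cd209a minimum to 1 UMI gave -0.38 (edgeR adjusted p = 0.986). In thinned cells 7.96% of cDC2 had a Chil3 UMI, less than the 17.5% of T cells. Within the gate, Chil3 was higher in cells with 3 or more Ly6c2 UMIs, at 296, 221, 81.5 and 40.4 CPM (WT-1, WT-2, cKO-1, cKO-2). In cells with no Ly6c2 UMI it was at 10.2, 22.9, 12.6 and 10.3. Whether free RNA, mixed droplets or the gated cells gave these UMIs was not tested. In other gates Chil3 was at 125, 128, 14.3 and 12.8 CPM in plasmacytoid dendritic cells and 2050, 1606, 1511 and 1332 in monocytes. In cDC1 Chil3 was at 101, 102, 64.8 and 95.9 CPM, and in migratory dendritic cells, at 21.4, 41.7, 175 and 131, it was higher in cKO. The other 13 monocyte genes of the list summed to 8762, 9280, 7429 and 9268 CPM in cDC2, with the groups overlapping; their part in the fall of Chil3 was not tested.

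S100a8, a calcium-binding protein abundant in neutrophils and monocytes, was at 16.7, 38.5, 0 and 0.476 CPM, from 34, 119, 0 and 1 UMIs. The ratio of WT to cKO counts was 102, with an exact counting interval of 18.1 to 4066. That interval covers counting error only. It takes no account of UMIs that lie together in a few cells, or of the spread between libraries, so its lower end is no bound. In edgeR the log2 fold change was -6.35 ± 0.80 (adjusted p = 0.00776). These UMIs lay in 3 WT-1 cells, 4 WT-2 cells and 1 cKO-2 cell, and 1 WT-2 cell held 116 of them; without WT-2 the edgeR adjusted p was 0.213. The 6 neutrophil genes of the list summed to 46.6 and 129 CPM in the WT libraries and 9.78 and 13.3 in cKO, and to 20.1, 22.0, 7.52 and 11.9 without S100a8 and S100a9. The share of thinned cells with a UMI was 0.865% in cDC2 and 0.877% in T cells, so it did not set cDC2 apart from T cells. The source of the S100a8 UMIs was not tested.

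Of the genes with the smallest p that missed the threshold, Dennd4a was higher in cKO, at 838 and 684 CPM in WT and 1289 and 1231 in cKO (log2 fold change 0.72, edgeR adjusted p = 0.219). The heat shock gene Hspa1b was at 591, 426, 286 and 261 CPM (-0.90, edgeR adjusted p = 0.209). S100a9 and Cd300e were at -4.75 and -2.50 on the log2 scale (edgeR adjusted p = 0.209 and 0.266), with 209 of the 211 S100a9 UMIs of WT-2 in 1 cell. G0s2 had 47 UMIs in the WT sets and 0 in the cKO sets, which is at least 10.5-fold lower if the cKO group is given 3 counts in all (edgeR adjusted p = 0.0992). Of the G0s2 UMIs 57.4% lay in 1 cell, and that bound takes no account of this. DESeq2 called Dennd4a and Hspa1b.

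The markers of cDC2 did not pass the test in either direction. Ifitm1 was at 1385 and 1466 CPM in WT and 2002 and 1722 in cKO, without overlap (log2 fold change 0.37 ± 0.13, edgeR adjusted p = 0.825). Ciita was at 223 and 218 CPM in WT and 239 and 272 in cKO. Kmo, at 225, 234, 200 and 239 CPM, and Ctnnd2, at 294, 367, 474 and 301, overlapped between the genotypes. The same held for Zbtb46, at 73.6, 92.9, 127 and 66.7 CPM, while Flt3 was at 83.4 and 100 in WT and 112 and 110 in cKO.

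Antigen presentation genes lay close to 0 or slightly above. Of 9 MHC class II genes tested none passed the test, 8 were above 0, and the median log2 fold change was 0.17, against 0.00 over all genes tested. Cd74, the invariant chain that chaperones class II, was at 6401 and 6348 CPM in WT and 6961 and 9141 in cKO (0.33 ± 0.14, edgeR adjusted p = 0.921). H2-DMb2, a subunit of the peptide exchanger H2-DM, was at 58.9 and 63.4 in WT and 86.5 and 90.5 in cKO (0.52 ± 0.19, edgeR adjusted p = 0.834). Both cKO libraries were above both WT libraries for 5 of the 9, as they were for 17.7% of all genes. The rule sets a minimum of H2-Ab1, so the gate itself can limit class II differences within cDC2. The 13 genes of MHC class I processing had a median of -0.00, with 6 above 0.

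Interferon-induced genes lay mostly below 0 in cDC2. Of 21 type I interferon response genes tested none passed, 3 were above 0, and the median was -0.28; of 13 interferon gamma-induced genes none passed, 1 was above 0, and the median was -0.44. Both WT libraries were above both cKO libraries for 8 of the 21 and 6 of the 13, against the 16.5% of all genes given above. In the order WT-1, WT-2, cKO-1, cKO-2, the type I genes summed to 6176, 7797, 4232 and 6369 CPM, so the genotypes overlapped. The 18 interferon gamma-induced genes of the list summed to 4861, 4278, 2843 and 4165 CPM, without overlap. Both sums were lowest in cKO-1. Ifit2, an antiviral RNA-binding protein, was at 823 and 1056 CPM in WT and 460 and 710 in cKO (-0.69 ± 0.19, edgeR adjusted p = 0.630), and Rsad2 (viperin) at 466 and 782 in WT and 281 and 434 in cKO. Cxcl9, which draws T cells through Cxcr3, was at 299, 160, 21.8 and 162 CPM, so cKO-2 overlapped the WT libraries and cKO-1 did not. Ccl5, another T cell chemoattractant, was at 191, 335, 21.1 and 146 CPM, also lowest in cKO-1. RNA sensing genes, among which Trim25 acts on the receptor RIG-I (Ddx58), had a median of -0.14 over 10 tested genes with 3 above 0, and Ddx58 was at 233, 265, 200 and 231 CPM.

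Chil3 and S100a8 were the list members past the test. Among 14 monocyte genes Chil3 fell, 1 was above 0 and the median was -0.26; this is the list with Thbs1, where 359 of the 458 UMIs of WT-2 came from 1 cell. Of 22 lectin and pattern recognition genes none passed and 5 were above 0 (median -0.23); the lectin Clec4a1 was at 87.8 and 92.5 CPM in WT and 46.6 and 49.5 in cKO (edgeR adjusted p = 0.276). Of 13 cytokine genes none passed and the median was -0.01; Il1b, which encodes interleukin 1 beta, was at 1878 and 1642 CPM in WT and 2749 and 2511 in cKO (0.57 ± 0.13, edgeR adjusted p = 0.328). Medians were 0.02 for 13 costimulatory and checkpoint ligands, -0.21 for 13 chemokines, 0.13 for 20 glycolysis and hypoxia genes, 0.03 for 20 oxidative phosphorylation genes and 0.18 for 19 immediate early and stress genes, none with a member past the test. The 15 other cDC2 genes tested had a median of 0.11 with 10 above 0, and 16 genes shared by dendritic cells 0.08 with 10 above 0. Medians were 0.07 for 15 unfolded protein response genes, 0.03 for 13 cathepsin and antigen processing genes, -0.12 for 13 proliferation genes and 0.01 for 7 chemokine receptors, and 0.05 for 4 IFITM and 0.20 for 5 kynurenine pathway genes. Genes of other cell types had medians of -0.14 (10 macrophage genes), -0.10 (9 cDC1), 0.06 (10 migratory), 0.06 (5 plasmacytoid) and -0.52 (5 NK), and the T cell, B cell and tumour or fibroblast lists had 2, 1 and 1 tested members.

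**Figure D5:**
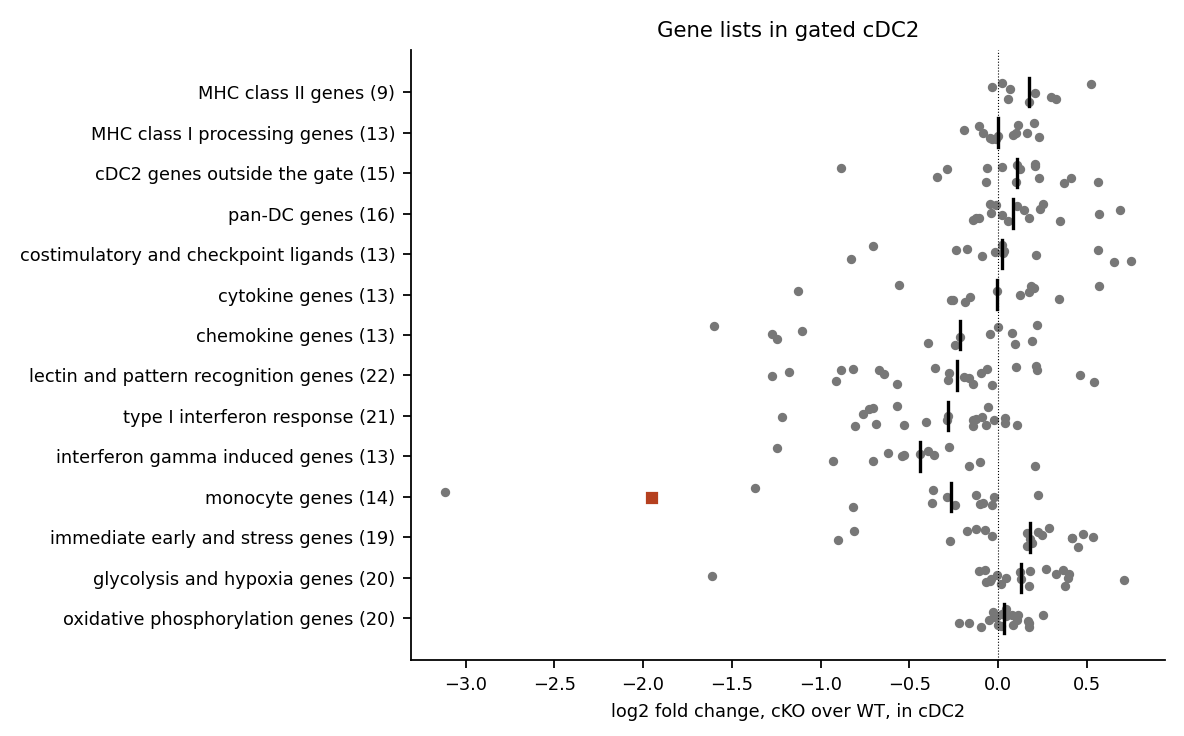
Log2 fold changes of cKO over WT in cDC2 for the tested members of 14 gene lists (number tested in brackets), with a bar at each list's median and a square for the 1 member past the test, Chil3. The interferon lists lie left of 0 and MHC class II slightly right of it.

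Whether the genotype effect in cDC2 differed from that in other myeloid cells was tested as an interaction with the library as a block. Against cDC1 0 of 9762 genes passed in edgeR (0.0%), with 457 at an unadjusted p under 0.05 and 1 called by DESeq2. Against migratory dendritic cells 2 of 8703 passed (0.023%), and against monocytes 14 of 13138 (0.107%), each with the effect lower in cDC2. The smallest p-values against cDC1 were those of S100a9 (-8.20), the NK genes Nkg7 (-2.48), Klre1 (-2.05) and Klra7 (-3.39), and the chemokine Ccl4 (-1.05), with edgeR adjusted p from 0.0853 to 0.227. Against migratory cells Cxcl2 (-4.95), Jchain (8.24) and Qpct (-3.82) came next, each at an edgeR adjusted p of 0.101; Jchain was at 3379 CPM in the migratory cells of WT-2 and at 2.14 to 12.2 in the others. Among the genes that passed against monocytes was Cd14, the lipopolysaccharide co-receptor, at 63.3, 59.2, 39.1 and 31.4 CPM in cDC2 and 197, 168, 314 and 277 in monocytes. H2-Aa was at 547, 603, 881 and 804 CPM in monocytes and 4941, 4965, 4823 and 5627 in cDC2, so the genotypes lay apart in monocytes and overlapped in cDC2. The cDC2 rule sets a minimum of H2-Ab1, also a class II gene, and the monocyte gate sets none. That can limit a class II difference in cDC2 alone, so no conclusion is drawn from the H2-Aa interaction. Monocytes were far more numerous, at 1630 to 3081 cells per library, than cDC2.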

How the data were processed

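Single-cell 3' RNA sequencing was deposited as raw UMI counts per gene and barcode, not normalized, 1 matrix per library. The labels' protocols name a Chromium v3 kit; the deposited barcodes are 20 bases long. The submitters' processing notes name Cell Ranger, STAR and mm10 without versions or annotation. The libraries held 96751399, 127449324, 101176581 and 115111783 UMIs in 10385, 12318, 8533 and 9654 barcodes.

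The cell filter required 300 genes and 500 UMIs and allowed up to 15% mitochondrial UMIs. Scrublet's automatic threshold marked 0 cells in every library and so had not worked; scores above 0.2 were left out in an alternative. The other gates were cut likewise: cDC1 by Xcr1 with Clec9a, migratory cells by Fscn1, plasmacytoid cells by Siglech, and monocytes by Ly6c2 with no Cd209a and no Flt3. Feature IDs were matched to GENCODE vM21 (32158 of 32285). Raw counts were summed per library and gate and tested in R 4.3.3 with edgeR 4.0.16 (scaling by TMM, filterByExpr, quasi-likelihood test, Benjamini-Hochberg adjustment, threshold 0.05, two-sided). Cells were never replicates. Shares of cells with a UMI were taken after thinning to 5000 UMIs. Other tools were DESeq2 1.42.0, python 3.11.15, scanpy 1.11.5, scipy 1.17.1, pandas 2.3.3 and matplotlib 3.10.9. Counts were simulated for 9012 genes of this contrast. Of genes with a log2 change of 1, 73% were recovered, and of those with 2, 100%. In the same counts 4 of 8812 unchanged genes were called. Only genes with a mean of at least 50 CPM were changed, and every gene was given 1 common spread between libraries. Counts set by single cells, as for Chil3 and S100a8, were not simulated, so these rates do not carry over to such genes.

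The cell rule, the 30 gene lists (403 genes, 5 of them not matched to the files) and the tests were chosen with earlier results of these data known. Named genes were all past the threshold, the 8 with the smallest p, Trim25, Vsir, the markers, list members past the test or highest in level, the 15 highest ratios to other gates and the 5 smallest interaction p-values; an item withheld from the text is not reported here, and genes named beyond these were chosen after their values were seen. Genes read by the gate are described only. Alternatives changed the test, scaling, filter, libraries, gate and doublets.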

Additional observations from a re-analysis of the deposited data

Results flagged for a closer look

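The genotype effect, as the log2 fold change of cKO over WT, differed between cDC2 and another gate for the following genes by the interaction test in edgeR (adjusted p under 0.05); negative values mean a lower effect in cDC2. Against migratory dendritic cells the difference was -4.10 for Chil3 and -7.57 for Thbs1, from sets of only 15 to 41 migratory cells per library. Chil3 was at 21.4, 41.7, 175 and 131 CPM there, and Thbs1 at 6.11, 7.83, 328 and 60.0.

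Against monocytes the difference was -1.63 for Chil3, -2.06 for the chemokine Xcl1, -1.54 for Cd14, -2.54 for the chemokine Cxcl2, -1.52 for the chemokine Ccl12, -1.20 for the scavenger receptor Msr1, -2.14 for Il1a and -1.61 for the lectin Clec4e. Msr1 was at 42.2, 36.2, 18.1 and 18.6 CPM in cDC2 and 404, 379, 430 and 401 in monocytes. The difference was -0.51 for H2-Aa, a class II gene, where the H2-Ab1 minimum of the cDC2 rule has no counterpart in the monocyte gate. The highest cDC2 cell held 31.6% of the Cxcl2, 21.5% of the Il1a and 21.4% of the Xcl1 UMIs. For Cd14, Ccl12, Msr1, Clec4e and H2-Aa that cell held from 0.889% to 15.1%. Il1a was at 22.6 CPM in WT-1, 7.76 in WT-2, 6.02 in cKO-1 and 7.14 in cKO-2 in cDC2.

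The differences of S100a8 (-5.33), S100a9 (-3.80), Thbs1 (-3.59) and Tnfaip6 (-3.25) rested on few cells, as did that of Chil3, whose highest cells held 220 of 297, 143 of 358 and 48 of 57 cDC2 UMIs in WT-1, WT-2 and cKO-1. Leaving out the highest cells lost the call of Chil3 within cDC2 (edgeR adjusted p = 0.269), and the interaction was not run without them. For the other 4 genes the highest cDC2 cell of all libraries held 75.3%, 88.6%, 65.9% and 60.0% of their UMIs. For G0s2 the fitted difference was -10.46, and 1 cDC2 cell held 57.4% of its UMIs. The gene had no UMI in cKO cDC2, so the fitted value depends on the prior count and is no bound.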

How the results depend on the processing

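The count of 3 genes past the threshold in cDC2 moved with most settings. It was 5 with DESeq2, 67 with no low-count filter, 8 with the replicate number as a block, 1 in cells with at least 1 Flt3 UMI (Hspa1b), and 0 with a Cd209a minimum of 1, with the gate on thinned cells, and in cells with no Ly6c2 UMI. Settings added after seeing the data gave 1 without the highest cell of each gene, 1 with cells capped at 5 UMIs, and 0 without cells holding 3 or more NK or neutrophil UMIs. Leaving out 1 library gave 2 to 51: 6 and 2 when WT-1 or WT-2 was dropped, 49 and 51 when cKO-1 or cKO-2 was, where the lone sample is assumed to vary like the others. The replicate numbers pair nothing in the labels, and same-numbered libraries deviated together by a correlation of only 0.0358. The 3 called genes kept their direction in every setting that gave a value. Hpgd had a value in 18 settings, Chil3 in 17 (none in cells with no Ly6c2 UMI) and S100a8 in 12. S100a8 had none with the gate on thinned cells, with no Ly6c2 UMI or with a Flt3 UMI. It also had none without the highest cell, with capped cells, or without cells holding NK or neutrophil UMIs, so its dependence on single cells was not tested there.

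The interaction with cDC1 gave 1 gene with DESeq2, 62 with no filter and 0 to 94 without 1 library. With migratory cells it gave 4 with DESeq2, 1 with RLE scaling, 36 with no filter and 17 to 215 without 1 library, and with monocytes 6, 74 with no filter and 48 to 94. Without 1 library, Vsir ran from -0.18 (WT-2 left out; -0.17 for cKO-2) to 0.24, Kmo from -0.22 to 0.061 (cKO-1 left out) and Ctnnd2 from -0.13 (cKO-1 left out) to 0.49 on the log2 scale. In cells with a Flt3 UMI, Vsir turned to -0.064 and Kmo to 0.038, and with capped cells Ctnnd2 turned to -0.069. The difference in cDC2 share, cKO minus WT, stayed below 0 in all 13 alternatives, from -0.660 to -0.0647 percentage points without 1 library. These alternatives reuse the same libraries, whose groups overlapped in the main setting, so that agreement is no test. The causes were not tested. With 84 to 231 cells per library, genes of few UMIs are set by single cells.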
